A study of Mus musculus with 4 samples.

Results

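Collagen genes were examined in single cells of mouse colonic organoids, which are three-dimensional gel cultures grown from digested distal colon, and whose cells were mesenchymal as well as epithelial. A gene was a member if its symbol in the deposited gene table was Col, a number, the letter a and a number, which selected 44 of 30360 genes. The symbols were used to choose the members and no measured value was. By the established classification of collagens, 11 members were fibrillar, 8 belonged to basement membranes, 6 were beaded-filament (type VI) collagens, 9 were FACIT collagens (fibril-associated collagens with interrupted triple helices), 3 formed short-chain networks, 4 were transmembrane and 3 were anchoring or other types.

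Cultures came from wildtype (C57BL/6) mice and from Tnfr2-/- mice (B6.129S2-Tnfrsf1btm1Mwm/J), which carry a disrupted gene for TNF receptor 2, and the mice were 16 weeks old. After passage 5, cultures received vehicle or TNF (tumor necrosis factor) at 20 ng/ml from day 1 to day 6, and on day 7 living cells were separated from apoptotic ones and captured with 10x Chromium 3′ chemistry. The knockout was present in every cell of the animal, not in a chosen cell type. There was 1 library for each of the 4 groups, and no test between groups was made, so that all differences are between single cultures. Sets of 4 values are given for wildtype untreated, then wildtype with TNF, then Tnfr2-/- untreated, then Tnfr2-/- with TNF.

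Collagens are mostly secreted proteins of 3 chains wound into a triple helix, and they make up a large part of the extracellular matrix. In the gut wall, fibroblasts deposit fibrils of types I, III and V in the connective tissue, while the basement membrane under the epithelium is a sheet built on a network of type IV collagen, to which both fibroblasts and epithelial cells can contribute. Type VI collagen forms beaded microfilaments near basement membranes, and type VII forms anchoring fibrils that tie the basement membrane to the tissue below.

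The libraries held 2589, 1469, 1117 and 980 cells and between 44547639 and 87228093 UMIs (unique molecular identifiers, each counting 1 captured RNA molecule whatever its length). The deposited annotation placed 1430, 306, 90 and 122 cells in 4 mesenchymal classes and 1128, 1163, 1023 and 858 cells in 7 epithelial classes, and left 35 cells without a class. The mesenchymal label held up against fibroblast markers, with 6, 6, 6 and 5 of 7 at 20 CPM or more (CPM are the UMIs of a gene scaled to 1000000 UMIs of the cells summed). Thy1 was the marker below that level in every library, at 4.943, 0.204, 3.675 and 0 CPM, and Acta2 was below it in the Tnfr2-/- TNF library, at 13.41 CPM. The defining markers of leukocytes and T cells (Ptprc, Cd3e) were at 0 in the mesenchymal cells of all 4 libraries, and no endothelial, smooth muscle, pericyte or glial marker reached 20 CPM. The summed level of 6 epithelial markers in mesenchymal cells was 244.9, 215.4, 127.7 and 763.5 CPM. The class makeup of the mesenchyme differed between libraries. The class named after Ifitm1 held 892, 0, 1 and 0 cells, the class named after Ptges (prostaglandin E synthase) 34, 304, 37 and 122, the generic class 393, 1, 51 and 0, and the proliferative class 111, 1, 1 and 0. In the wildtype untreated library the 34 Ptges-class cells had a median of 5755 UMIs, against 48633, 21965 and 37644.5 in the other libraries. Tnfrsf1b, the disrupted gene, was counted at 9.756, 13.97, 2.05 and 7.587 CPM over all cells. The 3′ end, where reads were counted, was not shown to lie inside the disrupted segment, so these values do not check the genotype labels, and 3 cell barcodes occurred in 2 libraries.

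Of the 44 members, 21 reached 20 CPM in a class of a library with at least 50 cells and are described by name. These were 9 of 11 fibrillar, 4 of 8 basement membrane, 3 of 6 beaded-filament, 2 of 9 FACIT, 1 of 3 short-chain, 1 of 4 transmembrane and 1 of 3 anchoring or other members. The remaining 23 included Col10a1 and Col6a6 with 0 UMIs, and 19 members with 1 to 99 UMIs in all cells together. Col14a1, a FACIT collagen used as a marker of some fibroblasts, had 38 UMIs, and Col17a1, the hemidesmosome collagen of stratified epithelia, had 32. The members together had 951772 UMIs.

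Several collagen genes lie next to one another, and the genes of both abundant type IV chains share a start region. Col4a1 (ENSMUSG00000031502, minus strand, chr8:11198423-11312826 in GENCODE M21 on GRCm38) and Col4a2 (ENSMUSG00000031503, plus strand, chr8:11312805-11449287) are transcribed away from each other and their annotated 5′ ends overlap by 22 bases. The other head-to-head pairs were Col4a4 with Col4a3 (71 bases apart) and Col4a6 with Col4a5 (1308 bases apart), whose members all stayed below the naming level. Col3a1 and Col5a2 lie 24614 bases apart on chromosome 1, and Col6a2 and Col6a1 lie 85161 bases apart on chromosome 10. Promoter windows of RefSeq (GRCm38.p6, 250 bases before to 50 bases after the start) were given for 35 members in 38 windows. The motifs searched, on both strands, were the TATA box as TATAAA, the CCAAT box by these 5 letters, the GC box as GGGCGG and, for the NF-kB factors that TNF activates, the kB element as GGGA followed by any 2 bases and then by TTCC. The TATA box occurred in 13.2% of the collagen windows (13.6% of all 32851 promoter windows), the CCAAT box in 34.2% (37.4%), the GC box in 60.5% (35.7%) and the kB element in 0% (1.47%). A match describes letters in a window and is no evidence of binding. Windows of 5 members that recur below are shown 5′ to 3′ on the strand of the gene, with matches in capitals. Those of Col4a1 (chr8:11312777-11313076) and Col4a2 (chr8:11312555-11312854) show the shared region, Col1a2 (chr6:4505368-4505667) and Col3a1 (chr1:45311288-45311587) were lower with TNF in mesenchymal cells, and Col5a3 (chr9:20815018-20815317) was higher.
Col4a1: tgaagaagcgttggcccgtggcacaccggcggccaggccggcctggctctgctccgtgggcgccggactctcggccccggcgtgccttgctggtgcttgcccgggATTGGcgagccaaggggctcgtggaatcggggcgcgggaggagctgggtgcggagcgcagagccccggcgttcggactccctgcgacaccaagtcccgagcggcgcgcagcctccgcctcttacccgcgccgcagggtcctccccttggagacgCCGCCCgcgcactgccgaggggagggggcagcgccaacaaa
Col4a2: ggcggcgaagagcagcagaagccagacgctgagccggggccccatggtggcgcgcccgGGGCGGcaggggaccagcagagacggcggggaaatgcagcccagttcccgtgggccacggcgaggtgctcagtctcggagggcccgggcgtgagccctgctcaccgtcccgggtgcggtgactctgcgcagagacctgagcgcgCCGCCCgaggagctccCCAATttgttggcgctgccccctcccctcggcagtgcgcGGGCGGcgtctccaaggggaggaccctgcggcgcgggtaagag
Col1a2: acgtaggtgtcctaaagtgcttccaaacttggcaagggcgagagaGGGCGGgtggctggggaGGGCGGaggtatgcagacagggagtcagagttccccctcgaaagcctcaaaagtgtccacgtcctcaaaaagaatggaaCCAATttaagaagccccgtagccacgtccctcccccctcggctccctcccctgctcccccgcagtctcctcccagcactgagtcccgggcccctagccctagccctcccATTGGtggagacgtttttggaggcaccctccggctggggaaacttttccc
Col3a1: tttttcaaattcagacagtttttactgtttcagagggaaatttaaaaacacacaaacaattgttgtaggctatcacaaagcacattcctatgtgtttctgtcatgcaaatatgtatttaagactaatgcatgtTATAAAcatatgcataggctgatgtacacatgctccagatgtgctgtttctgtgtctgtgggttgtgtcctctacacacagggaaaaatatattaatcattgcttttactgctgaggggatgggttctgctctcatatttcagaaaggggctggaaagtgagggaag
Col5a3: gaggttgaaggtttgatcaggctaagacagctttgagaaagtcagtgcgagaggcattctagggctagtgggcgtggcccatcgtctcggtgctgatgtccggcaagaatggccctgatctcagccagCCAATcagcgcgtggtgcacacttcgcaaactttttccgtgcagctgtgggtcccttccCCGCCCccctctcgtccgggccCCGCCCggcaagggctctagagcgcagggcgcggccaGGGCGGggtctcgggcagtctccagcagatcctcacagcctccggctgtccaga
The windows of Col4a1 and Col4a2 share 78 bases (chr8:11312777-11312854), read on opposite strands, and this stretch holds 1 GC box match, which is written CCGCCC in Col4a1 and GGGCGG in Col4a2. In these windows only Col3a1 held TATAAA and lacked GGGCGG, and its GC content was 37.7%, against 61% in Col1a2, 63.3% in Col5a3, 73.7% in Col4a2 and 74% in Col4a1.

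Collagen RNA was mainly mesenchymal. Collagens took 2.077%, 0.7767%, 1.756% and 0.8126% of the UMIs of mesenchymal cells, and 0.01177%, 0.01292%, 0.01217% and 0.01952% of those of epithelial cells. Within the mesenchymal cells, fibrillar members held 59.22%, 47.93%, 53.3% and 38.45% of the collagen UMIs, basement membrane members 23.79%, 30.35%, 26.06% and 38.5%, and beaded-filament members 10.87%, 5.024%, 11.39% and 5.039%. The fibrillar and beaded-filament shares were lower, and the basement membrane share higher, in both TNF libraries. The summed level of the basement membrane members was itself lower with TNF, at 4942, 2357, 4576 and 3129 CPM. Within the epithelial cells the order was another one, since basement membrane members held 85.34%, 82.36%, 92.49% and 93.19% of the collagen UMIs.

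**Figure D1:**
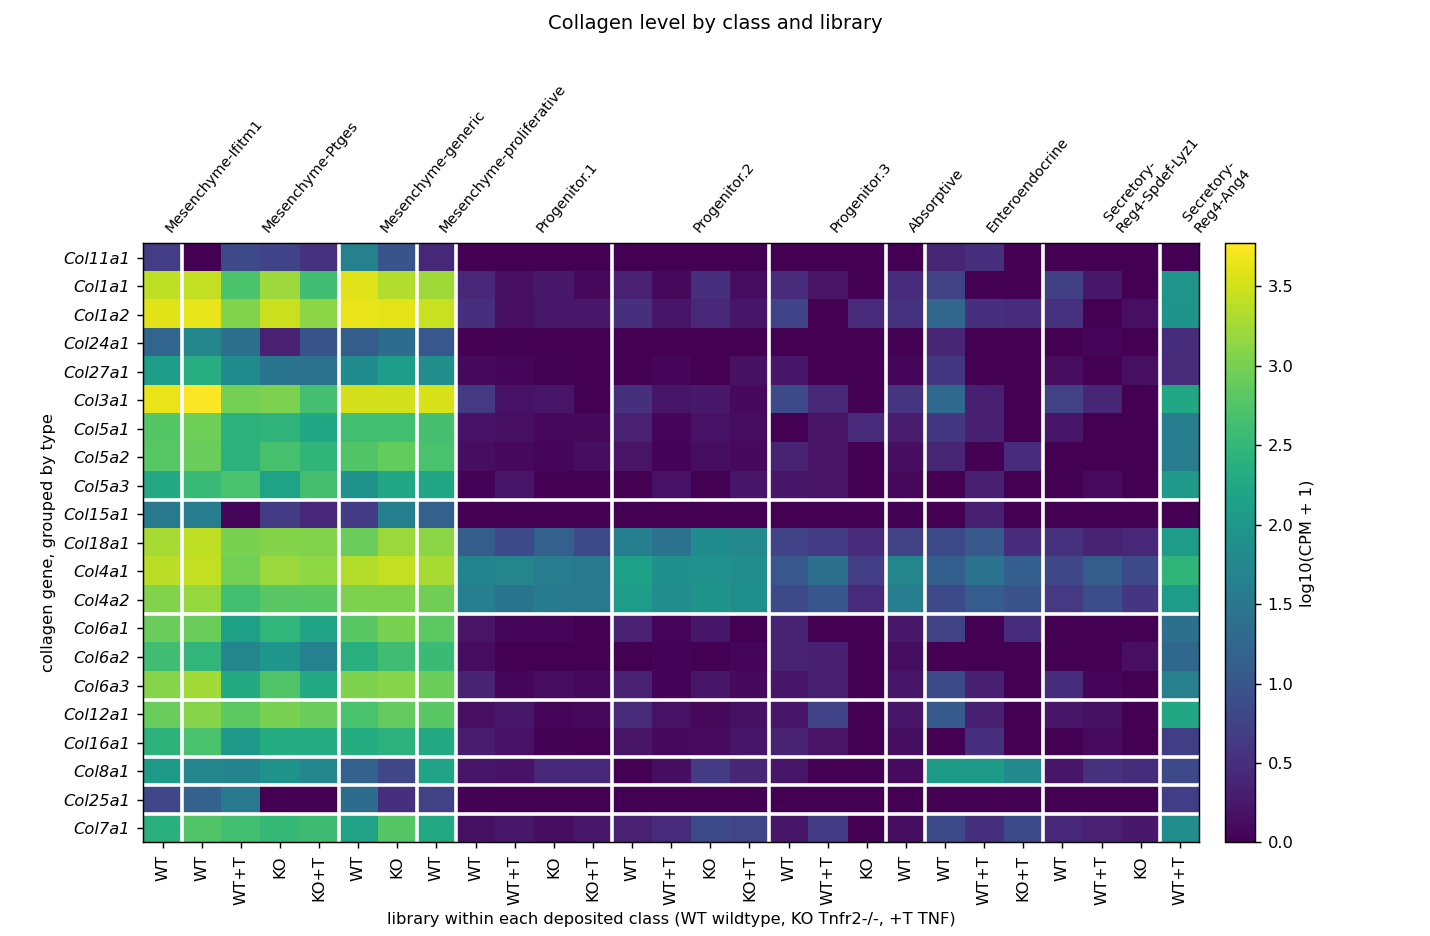
Level of the 21 named collagens, as log10(CPM + 1), in every deposited class of a library with at least 20 cells; white lines separate classes and collagen types. The left 8 columns, from mesenchymal cells, are bright for most genes, while among the Progenitor columns only Col4a1, Col4a2 and Col18a1 stand out and in the Enteroendocrine columns Col8a1 does.

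The question of the first comparison was which collagens were mesenchymal and which were also found in the epithelium. Differences are given as log2(CPM + 1) in one sum of cells minus that in another, and a gene was counted where the difference was at least 2-fold the same way in every library or pair and 20 CPM was reached in 1 of the sums compared. Of the 44 members 17 reached that level in every library, through their mesenchymal sum, and 17 were higher in mesenchymal than epithelial cells in all 4 libraries. Over all 5868 genes that could be compared, 14.8% were higher and 10.4% lower. Since passing the level meant being high in mesenchymal cells, and the classes were drawn from these same cells, the count is only a description. The differences ran from 3.24 on the log2 scale (Col4a2, Tnfr2-/- TNF) to 10.92 (Col1a2, Tnfr2-/- untreated).

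Col1a1 and Col1a2 encode the chains of type I collagen, the main fibril of connective tissue. In mesenchymal cells Col1a1 was at 2792, 510.2, 1986 and 405.7 CPM and in epithelial cells at 1.967, 1.523, 1.007 and 0.3268 CPM. Col1a2 was at 4001, 1138, 3666 and 1306 CPM in mesenchymal and at 2.702, 1.548, 0.8885 and 0.7291 CPM in epithelial cells. In mesenchymal cells both chains were lower in each TNF library than in either untreated library, and both were low in the epithelium of every library. Of the epithelial cells, 4.794% (exact 95% interval 4.165 to 5.486) held a Col1a2 UMI, and after thinning of every cell to 5000 UMIs 0.6589% did, against 99.32% of mesenchymal cells.

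Low collagen counts in epithelial cells were read against genes that only fibroblasts should make. For 13 such genes (11 or 12 of them at 20 CPM or more in the mesenchymal cells of a library), the epithelial level was 0.0554% to 0.287%, 0.0989% to 0.631%, 0% to 0.122% and 0.047% to 0.211% of the mesenchymal level. Of the 17 collagens measured in all 4 libraries, 4 lay above every reference gene in each library. Col4a1 was at 2.14%, 5.95%, 2% and 4.63% of its mesenchymal level, Col4a2 at 3.7%, 8.78%, 4.83% and 10.5%, Col8a1 at 2.11%, 6.48%, 6.45% and 4.16%, and Col18a1 at 0.629%, 1.23%, 1.62% and 4.45%. The other 13 lay within or below the reference range in at least 2 libraries. Where a member lay within or below that range, its epithelial level is not separated here from free RNA of fibroblasts. In the Tnfr2-/- TNF library Col27a1 (1.61%), Col7a1 (1.16%), Col16a1 (0.265%) and Col6a2 (0.223%) exceeded the range, and in the Tnfr2-/- untreated library Col7a1 (0.304%) did. In the Tnfr2-/- untreated and TNF libraries the anchoring and other members, Col7a1 included, were together at 5.953 and 5.245 CPM in Progenitor.2. In Progenitor.1 they were at 0.5173 and 0.78 CPM. Fibrillar members were at 5.852 and 3.23 CPM in Progenitor.2 and at 2.777 and 1.755 CPM in Progenitor.1. The source of this RNA was not tested.

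**Figure D2:**
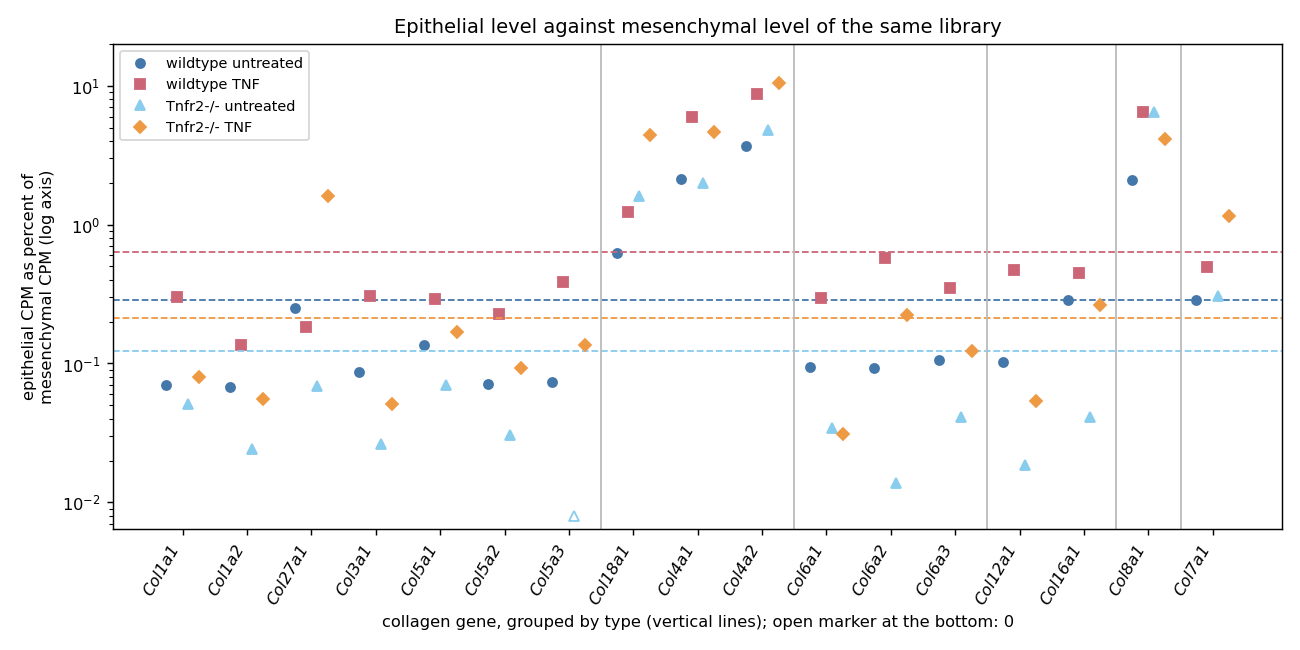
Epithelial CPM of each collagen as a percent of its mesenchymal CPM in the same library, on a log axis; dashed lines give the highest of the fibroblast reference genes in the library of the same colour. Col4a1, Col4a2, Col18a1 and Col8a1 lie above the line of their library in all 4 libraries.

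Col4a1, Col4a2 and Col18a1 were higher in Progenitor.2 than in the other epithelial classes with at least 20 cells, except that the shallow Reg4-Ang4 class of the wildtype TNF library, described below with its fibroblast genes, was higher still. Col4a1, which together with Col4a2 forms the common type IV network, was at 138.8, 77.49, 79.31 and 68.69 CPM in Progenitor.2 and at 49.58, 50.32, 38.01 and 31.4 CPM in Progenitor.1. Col4a2 was at 118.5, 69.37, 87.48 and 73.76 CPM in Progenitor.2 and at 41.54, 26.83, 34.5 and 31.79 CPM in Progenitor.1. The Progenitor.2 value was above the Progenitor.1 value in every library for both chains. Col18a1, whose C-terminal fragment is endostatin, was at 41.69, 24.67, 67.61 and 58.68 CPM in Progenitor.2 and at 12.01, 6.078, 13.31 and 6.045 CPM in Progenitor.1. In the Absorptive class, which had enough cells in the wildtype untreated library only, Col4a1 was at 50.6 CPM. The secretory class named after Spdef and Lyz1 had Col4a1 at 5.3, 12.1 and 5.9 CPM in the 3 libraries with at least 20 such cells. After thinning to 5000 UMIs, 27.36% (24.91 to 29.91) of Progenitor.2 cells held a Col4a1 UMI, 15.57% (13.83 to 17.42) of Progenitor.1 cells and 3.629% (1.673 to 6.777) of the Spdef-Lyz1 cells, whose median depths before thinning were 36594.5, 44897 and 37190 UMIs. Without thinning the shares were 70.4%, 59.46% and 21.96%.

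Enteroendocrine cells, the hormone-secreting cells of the gut epithelium, carried collagens that were low or absent in the other epithelial cells. Col8a1 encodes a chain of the short-chain network collagen VIII, known from the membrane under the corneal endothelium and from vessels. It was at 111.3, 111.5, 43.79 and 63.57 CPM in the 33, 31, 18 and 27 enteroendocrine cells (the third number is below the 20 cells otherwise asked for), and over all libraries at 87.84 CPM (exact Poisson interval 76.73 to 100.1) there, 1.236 CPM (1.079 to 1.41) in other epithelial cells and 75.88 CPM in mesenchymal cells. Over all libraries the mesenchymal interval was 73.63 to 78.19 CPM, which overlaps the enteroendocrine one. By library the enteroendocrine level was above the mesenchymal one (92.42, 48.88, 38.58 and 55.54 CPM) in each. Only in wildtype TNF did the enteroendocrine interval (90.42 to 136) exclude the mesenchymal value. In the wildtype untreated library the proliferative mesenchymal class, at 160.5 CPM, was above the enteroendocrine cells. Both wildtype enteroendocrine values were above both Tnfr2-/- values. The other 3 collagens of these cells were below the naming level and were chosen after their values were seen. Col28a1, a collagen with von Willebrand factor A domains, had 54 of its 57 UMIs in enteroendocrine cells, from 22 of 109 cells. By library these were 16, 37, 1 and 0 UMIs, or 24.39 CPM (13.94 to 39.62), 42.53 CPM (29.95 to 58.62), 1.825 CPM (0.04619 to 10.17) and 0 CPM, where the limit that a count of 0 allows is 6.152 CPM. The wildtype intervals do not overlap the interval of the Tnfr2-/- untreated library or the limit of the Tnfr2-/- TNF library. Col9a2, a chain of the FACIT collagen IX, had 39 of 52 UMIs in this class (5, 25, 3 and 6 by library), and Col19a1 had 10 of 10 (1, 9, 0 and 0). The highest count in any 1 enteroendocrine cell was 17 UMIs for Col8a1 and 11 for Col28a1. These intervals cover counting error only, and differences in the makeup of the enteroendocrine cells between libraries were not tested.

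**Figure D3:**
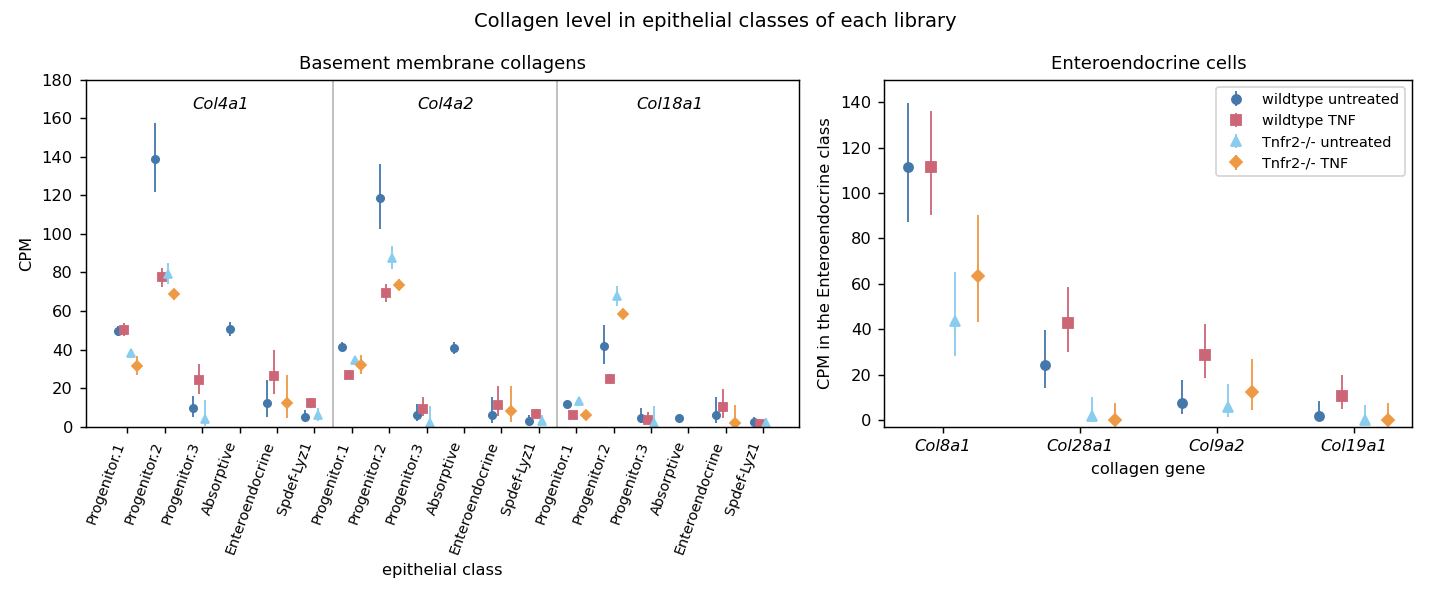
Left, CPM of Col4a1, Col4a2 and Col18a1 in epithelial classes with at least 20 cells in a library, without the Reg4-Ang4 class. Right, CPM of 4 collagens in the Enteroendocrine class (33, 31, 18 and 27 cells). Bars are exact 95% Poisson intervals. Progenitor.2 has the highest value of each library among the classes on the left, and Col28a1 has 0 or 1 UMI in the Tnfr2-/- libraries on the right.

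A further secretory class, named after Reg4 and Ang4, consisted of 246 cells of the wildtype TNF library with a median of 1957.5 UMIs. It held most of the named collagens at once, with Col4a1 at 294 CPM, Col12a1 at 184 CPM, Col3a1 at 175 CPM and Col5a3 at 110 CPM. For 19 collagens the level was 2.96% to 35% of that in the mesenchymal cells of the library (median 15.9%), and for 11 fibroblast reference genes it was 1.85% to 42.1% (median 13.2%). These ranges overlapped. Without this class the epithelial levels of the wildtype TNF library as a percent of the mesenchymal levels became 5.62% for Col4a1, 8.55% for Col4a2, 1.1% for Col18a1 and 6.41% for Col8a1, against a reference range of 0.0196% to 0.33%.

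The mesenchymal classes differed among themselves in single collagens more than in the total. In the wildtype untreated library, where all 4 classes had enough cells, Col1a1 was at 2582 (Ifitm1 class), 2639 (Ptges), 3806 (generic) and 1689 CPM (proliferative), so that the generic class was highest. Col11a1, a chain of the type XI collagen that regulates fibril width, was at 3.8, 0, 44.8 and 1.7 CPM, with 30.03% of generic cells holding a UMI against 2.915% of Ifitm1-class cells at similar median depths (21807 and 22354.5 UMIs). After thinning the shares were 13.78% (10.52 to 17.59) and 0.8989% (0.3888 to 1.763). Col15a1, a collagen of the zone next to basement membranes, showed the reverse, at 32.7, 38, 3.6 and 13.5 CPM, and Col8a1 was at 113, 52.5, 13.7 and 160 CPM. Col18a1 was at 1885, 2592, 819 and 1313 CPM and Col7a1, the anchoring fibril collagen, at 243, 566, 146 and 197 CPM, lowest for both in the generic class. Classes were drawn from the expression of the same cells, so these are descriptions. The Ptges-class values rest on 34 cells with a median of 5755 UMIs.

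In the Tnfr2-/- untreated library the order of the generic and Ptges classes was not the same for every member. Col15a1 was at 41.2 CPM in its 51 generic cells and at 3.603 CPM in its 37 Ptges-class cells, the opposite of the wildtype untreated library. Col7a1 was also in the opposite order, at 588.3 CPM in generic cells. In the Ptges-class cells the anchoring and other members, Col7a1 included, were together at 333.9 CPM. Col3a1, the type III chain that is mixed into type I fibrils of soft tissues, was at 3295 CPM in generic and 1065 CPM in Ptges-class cells, against 3345 and 5906 CPM in the wildtype untreated library. The generic values of Col3a1 were close in both libraries and the Ptges-class values were not. These reversals of order rest in part on the 34 wildtype untreated Ptges-class cells of low depth (median 5755 UMIs).

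The next comparison asked how collagens in mesenchymal cells differed between TNF and untreated cultures. Of the 44 members 18 reached the level, of which 9 were at least 2-fold lower with TNF in both genotypes (background: 3.51% of 5956 genes), 1 was higher (2.77%) and 8 were neither. The median log2 difference of the 18 was -1.26 in wildtype and -1.08 in Tnfr2-/-, beside 0.01 and -0.12 over all genes compared. Both untreated libraries mixed several mesenchymal classes and both TNF libraries were almost wholly of the Ptges class, so that TNF and class makeup cannot be told apart in these sums. With the sums restricted to the Ptges class, the only one with at least 20 cells in every library, the numbers became 5 lower and 0 higher.

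**Figure D4:**
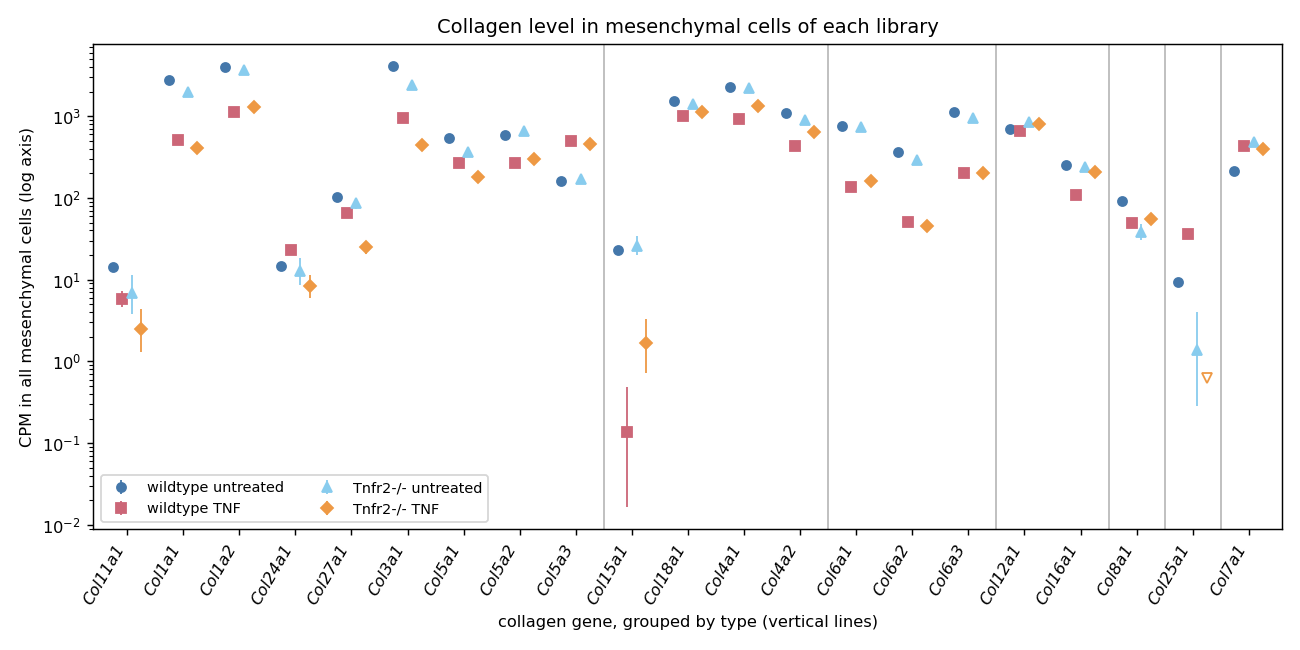
CPM of the 21 named collagens in all mesenchymal cells of each library, on a log axis, with exact 95% Poisson intervals; vertical lines separate collagen types and the open triangle is the limit that a count of 0 allows. Types I, III and VI are lower in both TNF libraries, Col5a3 is higher and Col12a1 lies within 655 to 851 CPM in all 4.

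Fibrillar members made up 5 of the 9. Col3a1 was at 4087, 956.5, 2410 and 441.8 CPM, which is 4.27-fold lower with TNF in wildtype and 5.45-fold lower in Tnfr2-/-. Col1a1, with the values above, was 5.46-fold and 4.89-fold lower, and Col1a2 3.51-fold and 2.81-fold lower. Each untreated value of these 3 genes was above each TNF value. The genes were picked out by these same values, and the share of all genes for which this holds is not given here. The type V chains Col5a1 (538.3, 264.7, 368.9 and 180 CPM) and Col5a2 (585.9, 264.1, 650.4 and 297.4 CPM), which help to start fibrils, were just past the 2-fold limit, with log2 differences of -1.02 and -1.03 for Col5a1 and -1.15 and -1.13 for Col5a2. With TMM factors or median-of-ratios size factors in place of CPM totals these calls were lost and 7 members remained lower.

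The third type V chain went the other way. Col5a3 was at 161.9, 493.2, 170.4 and 457.9 CPM, 3.03-fold higher with TNF in wildtype and 2.68-fold in Tnfr2-/-. Both TNF values were above both untreated values, and these are the values that picked it out. It was the only member counted as higher. The other fibrillar members were Col27a1, at 103.8, 66.29, 85.9 and 24.94 CPM and past 2-fold only in Tnfr2-/-, and Col24a1 and Col11a1, which did not reach the level in both pairs.

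The 3 beaded-filament members were all lower. These chains combine into type VI collagen. Col6a1 was at 751.8, 137.9, 747.8 and 160.7 CPM, Col6a2 at 364.1, 50.45, 288.5 and 45.06 CPM, and Col6a3 at 1140, 201.4, 959.6 and 203.3 CPM. The 2 TNF libraries lay close to each other and far below the untreated ones, and the log2 differences were -2.44 and -2.21 for Col6a1, -2.83 and -2.65 for Col6a2, and -2.49 and -2.23 for Col6a3.

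Basement membrane members were lower to a smaller extent, with 1 exception. Col15a1 fell furthest of all, from 22.96 to 0.136 CPM in wildtype (2 UMIs left) and from 26.18 to 1.677 CPM in Tnfr2-/- (log2 differences -4.40 and -3.34 on the CPM + 1 scale). It passed the level only through the untreated libraries. Col4a1 was at 2279, 913.9, 2223 and 1351 CPM and Col4a2 at 1085, 427, 893.4 and 638.6 CPM, past 2-fold in wildtype (2.49-fold and 2.54-fold) but not in Tnfr2-/- (1.65-fold and 1.4-fold). The difference between the genotypes was not tested. Col18a1 was at 1549, 1015, 1429 and 1136 CPM, under 2-fold in both.

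Of the other types, Col12a1, a FACIT collagen on fibril surfaces, was at 696.6, 654.9, 851.2 and 797.7 CPM with log2 differences of -0.09 in both genotypes. Col16a1, also a FACIT collagen, was at 250.6, 108.7, 240.2 and 208.5 CPM. Col7a1 was at 216, 431.8, 486.4 and 395.7 CPM and Col8a1 at 92.42, 48.88, 38.58 and 55.54 CPM, and for each of these 2 genes the wildtype and the Tnfr2-/- difference had opposite signs.

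Within the Ptges class alone, 17 members reached the level, of which 5 were lower with TNF in both genotypes (1.39% of 5809 genes) and 0 were higher (1.67%). The median log2 difference of the 17 was -1.71 in wildtype and -0.63 in Tnfr2-/-, beside 0.21 and -0.06 over all genes. Col1a1 was at 2639, 506.7, 1638 and 405.7 CPM, Col1a2 at 4335, 1133, 2920 and 1306 CPM, and Col3a1 at 5906, 957.4, 1065 and 441.8 CPM. Col6a3 was at 1743, 199.4, 548.8 and 203.3 CPM and Col6a2 at 297.8, 50.22, 96.08 and 45.06 CPM. For these 5, which were picked out by the same values, both TNF values were below both untreated values. The share of all genes for which this holds is not given here. The wildtype difference was the larger one in each of the 5, as for Col3a1 at 6.16-fold against 2.41-fold, which was not tested, and the wildtype untreated value rests on 34 cells of low depth. Restricted to cells with at least 5000 UMIs, the same 5 were counted. With TMM factors, median-of-ratios factors or a pseudocount of 10 CPM Col6a2 was not counted and 4 remained, and with a mean over cells Col6a1 and Col15a1 were counted as well, which made 7.

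Col5a1, Col5a2, Col6a1, Col15a1 and Col5a3 were not counted within this class. Col15a1 did not reach the level in the Tnfr2-/- pair, at 3.603 CPM untreated (3 UMIs) and 1.677 CPM with TNF. Col6a1 had log2 differences of -2.62 and -0.91, Col5a1 of -1.71 and -0.63 and Col5a2 of -1.59 and -0.67. For Col4a2 the Tnfr2-/- values were 638.9 CPM untreated and 638.6 CPM with TNF, against 1498 and 426.3 CPM in wildtype. Col5a3 was at 356.2, 494.9, 154.9 and 457.9 CPM, which is 1.39-fold higher with TNF in wildtype and 2.94-fold in Tnfr2-/-, and Col12a1 was at 1235, 653.5, 1033 and 797.7 CPM.

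**Figure D5:**
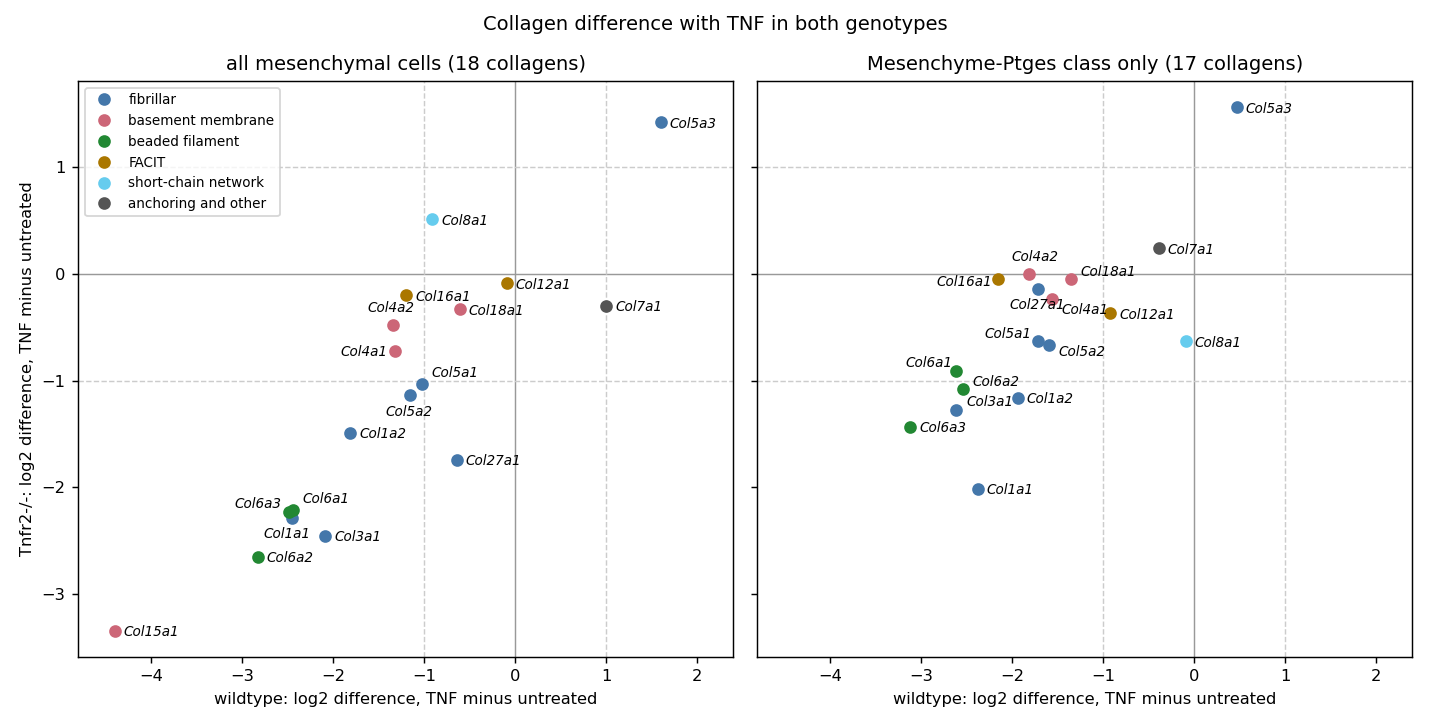
Log2 difference with TNF of each collagen that reached the level, wildtype on the x axis and Tnfr2-/- on the y axis, in all mesenchymal cells (left, 18 collagens) and in the Ptges class (right, 17 collagens); dashed lines mark 2-fold. Types I, III and VI lie at the lower left in both panels, except Col6a1 at -0.91 on the y axis of the right panel, and Col5a3 is at the upper right.

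Between genotypes, 17 members reached the level in mesenchymal cells and 0 were at least 2-fold higher (1.67% of 5935 genes) or lower (1.4%) in Tnfr2-/- under both treatments. No test was made, and this count does not show that the genotypes were alike. The medians were -0.13 untreated and 0.16 with TNF, beside -0.07 and -0.20 over all genes. These pairs are made of the same 4 libraries as the TNF pairs. Within the Ptges class 18 reached the level and 3 were lower in Tnfr2-/- (2.04% of 5943 genes), with 0 higher (3.03%). They were Col3a1, with the values above, Col27a1 at 219, 66.1, 27.62 and 24.94 CPM, and Col24a1, another fibrillar chain, at 52.55, 23.26, 1.201 and 8.383 CPM. Col24a1 passed the level only through the wildtype libraries, with 18 UMIs in the 34 wildtype untreated cells. All 3 counts rest in part on these 34 cells of low depth.

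Col25a1 (ENSMUSG00000058897, chr3:130131501-130599877, plus strand), a transmembrane collagen best known from neurons, did not reach the level in both pairs but differed by library in the share of cells. Its mesenchymal level was 9.339, 35.9, 1.378 and 0 CPM, where a count of 0 allows up to 0.629 CPM. In the Ptges class 11.76% (3.3 to 27.45), 46.38% (40.67 to 52.16), 0% and 0% of cells held a UMI, with median depths of 5755, 48633, 21965 and 37644.5 UMIs, and after thinning the shares were 8.333%, 11.15%, 0% and 0%. In the generic class 28.24% (23.84 to 32.98) of wildtype untreated and 5.882% (1.23 to 16.24) of Tnfr2-/- untreated cells held a UMI, at median depths of 21807 and 24774, and 9.439% and 0% did after thinning. Col25a1 was chosen for this account after its values were seen.

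In the epithelial cells only 2 members reached the level in the TNF comparison, and 0 were higher (0.92% of 5545 genes) or lower (0.0721%) in both genotypes. Col4a1 was at 48.72, 54.33, 44.48 and 62.5 CPM and Col4a2 at 40.19, 37.48, 43.18 and 66.8 CPM, highest for both in the Tnfr2-/- TNF library, where 83.45% of the epithelial cells were Progenitor.2 (5.496%, 23.47% and 22.78% in the other libraries). Within Progenitor.1 and within Progenitor.2 the Tnfr2-/- TNF library had the lowest Col4a1 level of the 4, with the values above. In the genotype comparison 3 members reached the level and 1, Col18a1, was at least 2-fold higher in Tnfr2-/- under both treatments (1.13% of 5663 genes), with 0 lower (1.41%). Col18a1 was at 9.736, 12.45, 23.16 and 50.61 CPM, 2.25-fold higher untreated and 3.84-fold with TNF. Col18a1 passed the level only through the Tnfr2-/- libraries, so that with these values it could only be counted as higher. Progenitor.2 held 62, 273, 233 and 716 epithelial cells, and within it the log2 differences were 0.68 untreated and 1.22 with TNF. Within Progenitor.1 they were 0.14 and -0.01. With a mean over cells in place of sums, or a pseudocount of 10 CPM, Col18a1 was not counted.

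The genes that modify, fold, cut and cross-link collagen were taken as a list of 30, of which 20 reached the level in mesenchymal cells. With TNF 0 of the 20 were counted in either direction, with medians of -0.14 and -0.26. Over all 5956 genes compared 2.77% were higher and 3.51% lower, so that 0 of 20 is near the share of all genes. Ranked by the smaller of the pair of differences, the 2 furthest down were Pcolce, which enhances the cutting of procollagen (log2 differences -1.77 and -0.93), and Serpinh1, the collagen chaperone HSP47, at 1211, 605.1, 820.8 and 501.3 CPM. The 2 furthest up were Loxl2, a cross-linking oxidase (0.54 and 1.27), and P4ha1, a prolyl hydroxylase subunit (0.32 and 0.86), although within the Ptges class the wildtype differences were -0.08 for Loxl2 and -0.36 for P4ha1. None of the 20 was counted between genotypes either, with medians of 0.03 and 0.12, which is also near the share of all 5935 genes (1.67% higher and 1.4% lower). Of 14 genes for collagen binding and uptake, 9 reached the level in the TNF comparison, of which 1 was higher (2.77% of all genes) and 2 were lower (3.51%). Itga2, the alpha chain of a collagen-binding integrin, was higher (3.86 and 2.60), at 1.58 CPM in wildtype untreated and 36.44 CPM in wildtype TNF. Itga2 passed the level only through the TNF libraries. Lum, a proteoglycan on collagen fibrils (-3.40 and -3.03), and Sparc, a collagen-binding matrix protein (-1.54 and -1.46), were lower. Within the Ptges class Itga2 and Lum were still counted and Sparc was not (-0.93 and -1.34), while Ctsk, the collagen-degrading protease cathepsin K, was counted as lower (-1.35 and -1.13). Over all 5809 genes compared there 1.67% were higher and 1.39% lower. Between genotypes 8 of the 14 reached the level in mesenchymal cells. Lum was lower in Tnfr2-/- (-1.40 and -1.03, beside 1.4% of 5935 genes) and 0 were higher (1.67%). Within the Ptges class 8 reached it, with Lum lower (-2.16 and -1.02, beside 2.04% of 5943 genes) and Ctsk higher (1.04 and 1.25, beside 3.03%). The Ptges-class values rest in part on the 34 wildtype untreated cells of low depth.

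As a description of which members went together, log2(CPM + 1) was correlated with that of Col1a1 over the 27 sums of a class in a library with at least 20 cells. The highest Pearson r values were 0.994 (Col6a3), 0.992 (Col3a1) and 0.989 (Col1a2). These largely reflect the gap between mesenchymal and epithelial classes, and sums of a library share its depth and its free RNA. Over the 8 mesenchymal sums alone r was 0.95 for Col6a3, 0.87 for Col3a1 and 0.98 for Col1a2, and it was -0.02 for Col12a1 and -0.78 for Col5a3.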

How the data were processed

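The authors deposited UMI counts per gene and cell, as whole numbers, with a cell table of library, genotype, treatment and class; the classes came from their clustering in monocle3. Cell Ranger 5.0.0 and mm10 are named in the submitters' processing notes, and no source used here gives the annotation release. Of the deposited cell table, the size factor, a score, and the plotting coordinates were left aside.

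For each class and library the counts of the cells were added up and scaled to CPM (a total of 1000000). Differences used a pseudocount of 1 CPM, a level of 20 CPM to be reached by 1 library or more of every pair, and a limit of 2-fold, with at least 20 cells per sum. Sums carry exact Poisson and shares exact Clopper-Pearson 95% intervals for counting error only, and a count of 0 allows 3 counts. Shares were repeated after thinning each cell to 5000 UMIs, which left out 405 cells. With 1 library per group no test was made. Doublets were scored with scrublet in scanpy 1.11.5 (expected rate 0.06), which called 47 of 6155 cells (0.764%), and were kept. The paper describes a removal of mixed epithelial and mesenchymal doublets, but the deposited cells still held called doublets. Of the 47, 25 were among the 35 cells without a class, which entered no comparison. The counts of collagens were recomputed with TMM factors (edgeR 4.0.16) or median-of-ratios size factors, with pseudocounts of 0.1 and 10 CPM, with a level of 5 CPM or none, with a mean over cells, cells with at least 5000 UMIs, removal of called doublets, classes weighted equally, and leaving out a library or the Reg4-Ang4 class. Python 3.11.15, numpy 2.4.6, scipy 1.17.1 and pandas 2.3.3 were used, and the counting was tested on simulated data.

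Named were collagens at 20 CPM or more in a class of a library with at least 50 cells, with values in every library for a list of well-known members and for the 3 largest rises and falls of a comparison. The members, lists and rules were chosen with earlier results of these data known. Positions came from GENCODE M21 by identifier (44 of 44 matched) and promoters from RefSeq.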

Additional observations from a re-analysis of the deposited data

Results flagged for a closer look

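The TNF difference in mesenchymal cells had opposite signs in the 2 genotypes for 2 collagens and lay more than 1 apart on the log2 scale. For Col7a1 it was 1.00 in wildtype and -0.30 in Tnfr2-/-, and for Col8a1 it was -0.91 in wildtype and 0.51 in Tnfr2-/-. With 1 library per group these differences between genotypes were not tested. Within the Ptges class the values were -0.39 and 0.24 for Col7a1 and -0.09 and -0.63 for Col8a1.

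Collagen RNA was also present in the cells without a class, which entered no comparison. In the wildtype untreated library 31 such cells had 5456 CPM of collagens together with 2122 CPM of the epithelial marker Epcam, and 21 of them were called doublets. In the Tnfr2-/- untreated library 4 such cells had 3167 CPM of collagens and 1396 CPM of Epcam, and all 4 were called doublets.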

How the results depend on the processing

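No paired test was made, with 1 library per group. The TNF and genotype counts describe differences that went the same way in both pairs of libraries. Of 130 recomputed counts of collagens, 121 stayed within 1.5 times the value reported, 9 moved and 0 reversed. Many of these counts compare 0 with 0, so that the total says little about stability. Of 290 recomputed values of single collagens, 231 stayed the same, 59 moved and 0 reversed in direction. With the mesenchymal classes weighted equally, over those with at least 20 cells in both libraries of a pair (the Ptges class, and in the untreated pair also the generic class), 0 collagens were higher and 5 lower with TNF, and 2 (Col3a1, Col24a1) were lower in Tnfr2-/-. With a level of 5 CPM or with none, 1 (Col25a1) was lower in Tnfr2-/- mesenchymal cells. In epithelial cells, with a mean over cells 1 (Col18a1) was higher with TNF and 0 were higher in Tnfr2-/-. With a pseudocount of 10 CPM 0 were higher in Tnfr2-/-, and with no level 1 (Col3a1) was lower. The alternatives for the epithelial percent of the mesenchymal level were chosen after seeing the data. Col18a1 left the 4 collagens above the reference genes with a mean over cells, and 4 remained in the other alternatives. In the wildtype pair of the Ptges class the median of all genes was 0.21 with CPM, 0.24 with TMM factors, 0.14 with median-of-ratios factors and 0.34 with a mean over cells, so that differences there are relative to that shift. In all mesenchymal cells of the Tnfr2-/- pair it was -0.12 with CPM and 0.03 with either set of factors. The causes of these changes were not tested.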
